A study of Homo sapiens with 12 samples.

Results

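The genes described here are 10 feedback genes of the ERK pathway, namely DUSP4, DUSP5, DUSP6, SPRY2, SPRY4, SPRED1, SPRED2, ETV4, ETV5, and PHLDA1. They were taken by symbol from a table of read counts for 60649 genes, in which each symbol had 1 row, and all 10 were among the 21114 genes that passed the filter on low counts. RNA sequencing was performed on 12 libraries of 2 established human uterine leiomyosarcoma cell lines, labelled wild type (WT), to examine how inhibition of Notch processing, alone or with chemotherapy, alters gene expression. SK-UT-1B derives from a primary tumor and is described as epithelial-like in shape, and SK-LMS-1 derives from a metastasis to the vulva. Cells were starved of serum for a short time and then exposed for 72 h to DMSO, to MK-0752, a gamma secretase inhibitor that blocks the activating cleavage of Notch receptors, or to a combination of MK-0752 with gemcitabine, which blocks DNA synthesis, and docetaxel, which stabilizes microtubules. The SK-UT-1B libraries were 2 of DMSO and 2 of the combination, and SK-LMS-1 provided 4 of DMSO, 2 of MK-0752 given alone, and 2 of the combination. MK-0752 alone was used at its IC30 for viability, and the combination held less MK-0752, so the single agent and the combination were not given at a matched dose. The concentrations in the combination were set for each line and were lower for all 3 drugs in SK-UT-1B, so the line and the dose cannot be told apart in comparisons of the combination between lines. SK-LMS-1 libraries after MK-0752 were compared with the 2 DMSO libraries that share their first library number (DMSO set 2), and those after the combination with DMSO set 4. In SK-UT-1B the DMSO libraries carry the first number 4 and the combination libraries 3. The treatment there and whatever this number stands for cannot be told apart. The SK-LMS-1 combination libraries carry 4, so line and number cannot be told apart in comparisons of the combination between lines either. Treatments had been selected for sequencing because HES1 was lower by qPCR, so its level here is a check only. Nothing states that libraries of a group came from separate cultures, and p-values therefore measure the spread between libraries, which may be technical.

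Growth factor receptors activate RAS, which drives RAF, MEK, and ERK, and active ERK induces genes whose products restrain the same cascade. DUSP4 and DUSP5 are nuclear phosphatases and DUSP6 a cytoplasmic phosphatase that remove the activating phosphates of ERK. Sprouty proteins (SPRY2, SPRY4) act between receptors and RAF, and SPRED1 and SPRED2 bring the RAS inactivator neurofibromin to the membrane. ETV4 and ETV5 are ETS transcription factors of the PEA3 group that carry the transcriptional output of the pathway, and PHLDA1 is a pleckstrin homology-like domain protein whose transcript follows ERK activity in many cells. Transcripts of these genes are widely used as a readout of ERK output, but they are not a measurement of ERK phosphorylation, which was not measured here.

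Promoter sequences are shown for the 3 genes in which letters of an ETS site were found, since ETS factors are the main nuclear effectors of the pathway. RefSeq start sites (GRCh38.p14) were matched by symbol for 6 of the 10 genes, namely DUSP6, SPRY2, SPRY4, SPRED1, SPRED2, and PHLDA1. Windows of 250 bases before each start site were searched on both strands for CGGAA, with CCGGAA, which contains it, counted in addition, for TGANTCA of AP-1, and for TGACGTCA of CRE. In the sequences below, written 5′ to 3′ on the strand of the gene, capitals mark CGGAA or its reverse complement TTCCG. The windows are chr12:89352502-89352751 on the minus strand for DUSP6, chr13:80341127-80341376 on the minus strand for SPRY2, which is the outermost of its start sites, and chr12:76031777-76032026 on the minus strand for PHLDA1.
DUSP6: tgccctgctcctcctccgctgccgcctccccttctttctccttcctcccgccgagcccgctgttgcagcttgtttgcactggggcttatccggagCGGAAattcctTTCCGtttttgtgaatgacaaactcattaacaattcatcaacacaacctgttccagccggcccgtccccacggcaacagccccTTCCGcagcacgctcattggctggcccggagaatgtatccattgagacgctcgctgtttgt
SPRY2: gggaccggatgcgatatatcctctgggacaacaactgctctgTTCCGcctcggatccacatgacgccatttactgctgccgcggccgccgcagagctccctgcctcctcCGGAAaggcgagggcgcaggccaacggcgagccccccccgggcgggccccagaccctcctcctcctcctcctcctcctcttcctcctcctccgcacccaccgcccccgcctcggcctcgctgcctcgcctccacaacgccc
PHLDA1: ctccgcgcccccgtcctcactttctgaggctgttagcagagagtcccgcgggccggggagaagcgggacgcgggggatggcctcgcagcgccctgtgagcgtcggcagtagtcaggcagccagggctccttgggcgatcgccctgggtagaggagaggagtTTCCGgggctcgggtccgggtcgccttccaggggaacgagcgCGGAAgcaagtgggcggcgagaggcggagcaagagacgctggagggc
DUSP6 held 3 matches to CGGAA, at -155, -144, and -61 bases from its start site. SPRY2 held 2 matches, at -208 and -141, and PHLDA1 held 2, at -89 and -47, and in each of these genes 1 match was the longer CCGGAA. The windows of SPRED1, SPRED2, and SPRY4 and the 2 further windows of SPRY2 held none, so that 3 of the 9 windows of the 6 genes held CGGAA. No window of these genes held TGANTCA or TGACGTCA. Among 35116 windows of this length before RefSeq start sites, 30.3% held CGGAA, 14.5% held CCGGAA, 6.57% held TGANTCA, and 1.65% held TGACGTCA, so matches of this kind are common.

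Libraries held between 25250057 and 40709885 counts on genes. Zeros were frequent for genes of low level. Where a library should have held 10 to 50 counts of a gene, judged by the remaining libraries of its line, 18.2% to 47.9% of genes were at 0 depending on the library, against at most 0.000359% under Poisson sampling. Among the 10 genes this bears on DUSP4 in SK-UT-1B alone, where it had 11 to 45 counts; every other gene had at least 234 counts in every library. All 6 pairs of libraries within a group differed by more than counting noise. In SK-LMS-1, HES1, a direct Notch target, fell by 2.76 on the log2 scale after MK-0752 (adjusted p = 0.0153) and by 3.37 after the combination (adjusted p = 0.0227) by the edgeR quasi-likelihood test with Benjamini-Hochberg adjustment, and both calls were lost with some libraries left out. In SK-UT-1B the log2FC of HES1 after the combination was -1.70 (adjusted p = 0.141). Smooth muscle markers summed to 85 to 124 CPM (counts scaled to library size) in SK-UT-1B. There MYH11 and MYOCD were at or below 3 counts in every library, and DES was at 50 to 282 counts. In SK-LMS-1 the markers summed to 543 to 626 CPM, with DES at or below 3 counts and MYH11 at no more than 5. Of this sum CALD1 held 307 to 399 CPM and SMTN 123 to 206 CPM. Of 9 epithelial markers, 6 were at or below 3 counts in every SK-UT-1B library (summed level 0.637 to 3.58 CPM), including EPCAM and CDH1, while the summed level in SK-LMS-1 was 170 to 266 CPM with CDH1 and GRHL2 at or below 3 counts. The 5 lymphoid and myeloid markers summed to at most 0.273 CPM in SK-UT-1B and 5.22 CPM in SK-LMS-1.

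Per length of the annotated exons (RPKM, reads per kilobase of exon scaled to library size), the 10 genes stood in a different order in each line. After DMSO in SK-UT-1B, DUSP6 was at 72.8 ± 0.992 RPKM (SD, n = 2) and SPRED1 at 70.0 ± 4.60, which did not differ beyond their spread. ETV4 followed at 56.0 ± 7.68, PHLDA1 at 39.7 ± 5.49, SPRY4 at 32.5 ± 3.10, SPRED2 at 31.8 ± 1.65, and ETV5 at 27.9 ± 4.18, of which SPRY4, SPRED2, and ETV5 overlapped. DUSP5 (4.60 ± 0.789), SPRY2 (2.28 ± 0.335), and DUSP4 (0.127 ± 0.123) were lowest. In SK-LMS-1, PHLDA1 was highest at 231 ± 19.4 RPKM (n = 4) and DUSP4 second at 46.3 ± 4.45. DUSP5 (32.9 ± 2.67), SPRED1 (31.8 ± 2.73), ETV5 (31.1 ± 2.79), SPRY2 (30.5 ± 2.81), SPRED2 (25.8 ± 2.703), and DUSP6 (24.1 ± 2.19) followed within overlapping ranges of neighbours, and SPRY4 (11.4 ± 1.73) and ETV4 (4.84 ± 1.11) were lowest. DUSP4 was thus lowest of the 10 genes in SK-UT-1B and second in SK-LMS-1, and ETV4 was the third and the lowest.

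**Figure D1:**
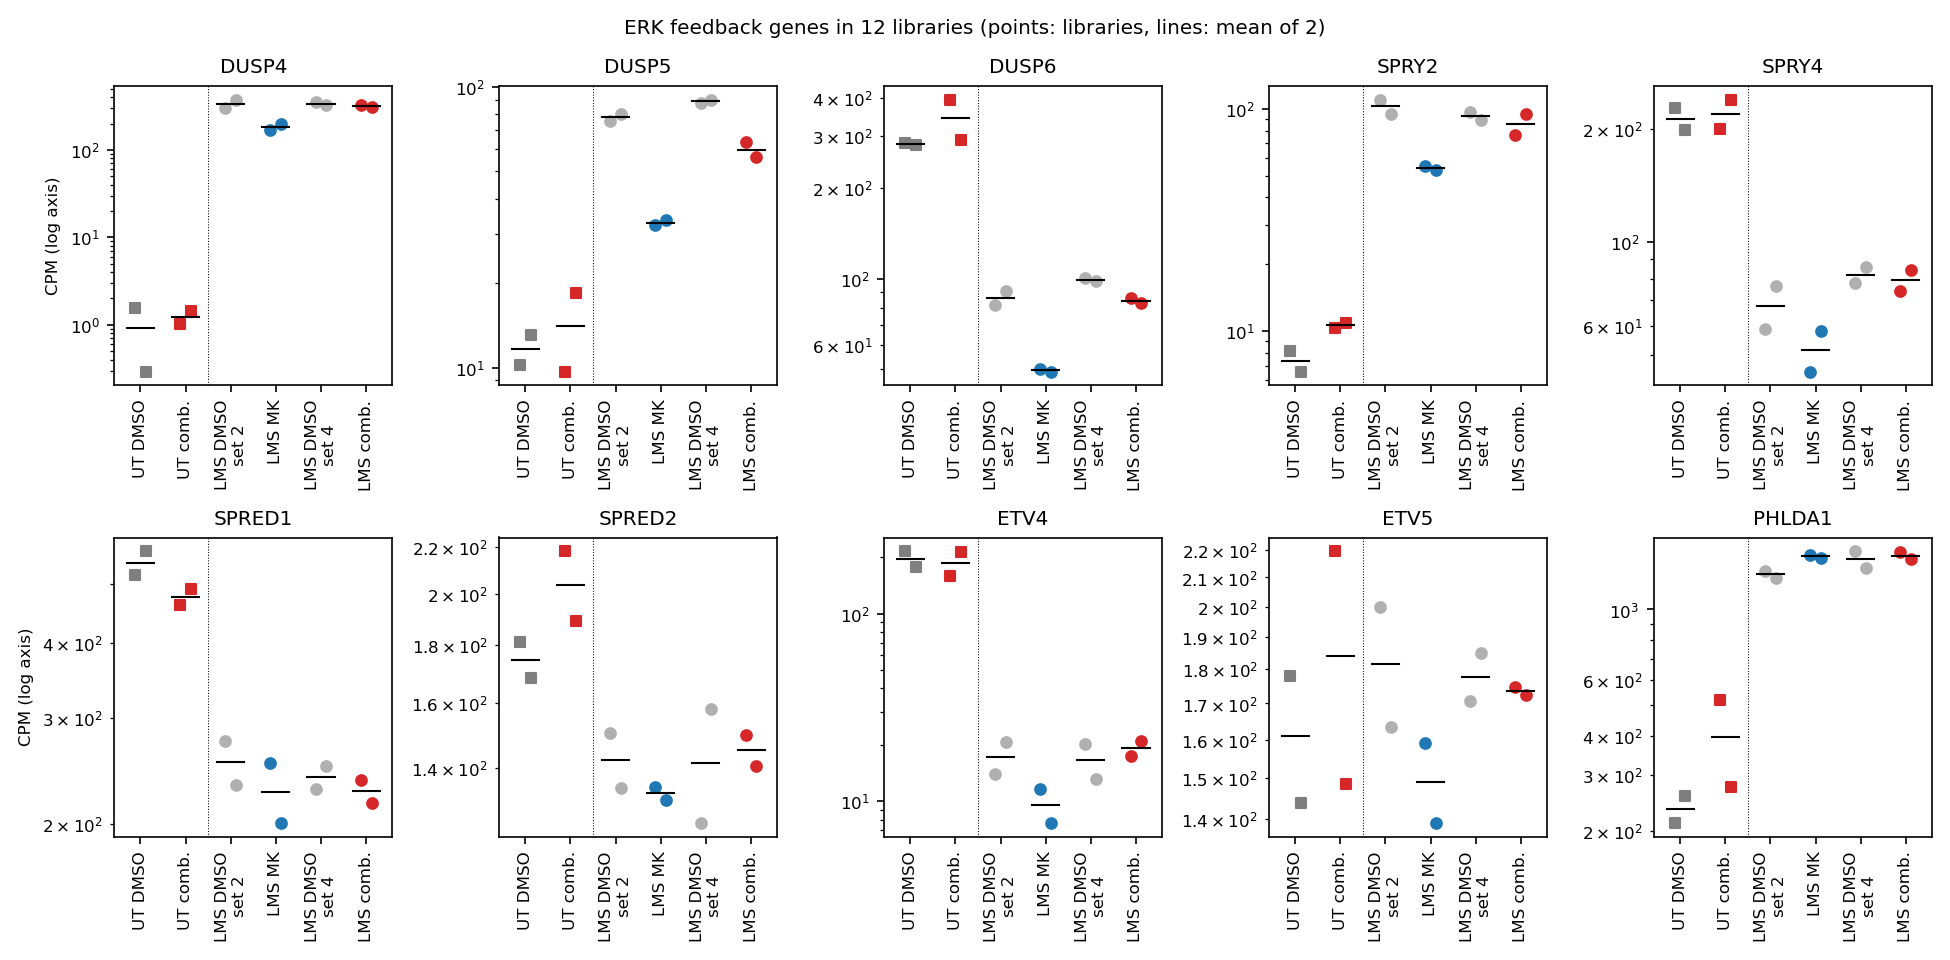
CPM (log axis) of each of the 10 genes in the 12 libraries, with 2 points per group and a line at their mean. Squares are SK-UT-1B (UT) and circles SK-LMS-1 (LMS), grey is DMSO, red the combination, and blue MK-0752. After DMSO, DUSP4, DUSP5, SPRY2, and PHLDA1 are called higher in SK-LMS-1 (thresholds given below), as are 17.0% of all genes. DUSP6, SPRY4, SPRED1, and ETV4 are called lower, as are 14.1%. Both MK-0752 libraries lie below all 4 SK-LMS-1 DMSO libraries for 7 genes, as for 7.70% of all genes.

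The first comparison asked how the feedback genes differ between the lines without drug. After DMSO, 4 of the 10 genes were more highly expressed by SK-LMS-1 cells (DUSP4, DUSP5, SPRY2, PHLDA1), and 4 by SK-UT-1B cells (DUSP6, SPRY4, SPRED1, ETV4). A gene was called where its log2FC was 1 or more in size with an adjusted p under 0.05 by the edgeR quasi-likelihood test with Benjamini-Hochberg adjustment over 21114 genes. Among all genes tested, 17.0% were called higher and 14.1% lower. The median log2FC of the 10 genes was -0.07, beside 0 for all genes, since the calls fell in both directions. Both directions occurred within the phosphatases and within the Sprouty genes, while SPRED1 and SPRED2 both had a log2FC below 0. SPRED3, which is not among the 10 genes, was called higher in SK-LMS-1.

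Among the ERK phosphatases, DUSP4 was at 1.56 and 0.292 CPM in the SK-UT-1B DMSO libraries (45 and 11 counts) and at 301, 375, 349, and 323 CPM across the DMSO libraries of SK-LMS-1. The lowest SK-LMS-1 library was far above both SK-UT-1B libraries, and the difference of 8.58 (SE 0.541, adjusted p = 1.77e-06, edgeR) was the largest of the 10 genes. With a library left out it was 7.75 to 10.1. DUSP5 was at 10.3 and 13.1 CPM in SK-UT-1B and at 75.3, 80.3, 87.6, and 90.1 CPM in SK-LMS-1. DUSP5 was higher in SK-LMS-1 by 2.83 on the log2 scale (SE 0.259, adjusted p = 2.34e-08). DUSP6 went the other way, at 284 and 278 CPM in SK-UT-1B and 81.9, 90.9, 101, and 98.0 CPM in SK-LMS-1. Its log2FC was -1.60 (SE 0.137, adjusted p = 8.74e-09), a level 3.03-fold lower in SK-LMS-1, and the groups did not overlap.

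Summed per length, the phosphatase transcripts differed less than their parts. DUSP4, DUSP5, and DUSP6 together came to 77.3 and 77.8 RPKM in the SK-UT-1B DMSO libraries and to 92.3 to 109 RPKM in those of SK-LMS-1. DUSP6 made up 93.3% to 94.5% of this sum in SK-UT-1B and 22.0% to 24.1% in SK-LMS-1, where DUSP4, the nuclear enzyme, made up 42.1% to 48.3% and DUSP5, also nuclear, 29.7% to 33.7%. In SK-UT-1B the 2 nuclear enzymes together made up the small rest, with DUSP4 at 0.0519% to 0.276% and DUSP5 at 5.199% to 6.67%. These sums and shares are descriptions and were not tested. They leave out the 7 other MAP kinase phosphatases listed, of which 3 were called higher in SK-LMS-1 and 3 lower. DUSP7, among those lower, was at 165 and 143 CPM in SK-UT-1B after DMSO and at 57.2 to 74.0 CPM in SK-LMS-1.

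Among the Sprouty genes, SPRY2 was at 8.10 and 6.58 CPM in the SK-UT-1B DMSO libraries and at 110.3, 95.2, 97.3, and 88.9 CPM in those of SK-LMS-1. SPRY2 was higher in SK-LMS-1 by 3.74 on the log2 scale (SE 0.215, adjusted p = 2.20e-11, edgeR), or 13.3-fold. SPRY4 was at 227 and 199 CPM in SK-UT-1B and at 58.9, 76.3, 77.9, and 85.7 CPM in SK-LMS-1, with a log2FC of -1.52 (SE 0.154, adjusted p = 1.08e-07). The summed Sprouty level differed less than its parts. SPRY2 and SPRY4 together came to 32.3 and 37.2 RPKM in SK-UT-1B and 40.7 to 43.3 RPKM in SK-LMS-1, of which SPRY2 was 6.33% to 6.78% in the first and 67.9% to 79.3% in the second.

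SPRED1 and SPRED2 varied less. SPRED1 was at 517 and 568 CPM in the SK-UT-1B DMSO libraries and at 275, 232, 229, and 249 CPM in those of SK-LMS-1, a log2FC of -1.14 (SE 0.127, adjusted p = 3.87e-07, edgeR) with no overlap. SPRED2 was at 181 and 168 CPM in SK-UT-1B and 150.5, 135, 125, and 158 CPM in SK-LMS-1, and its log2FC of -0.30 (95% interval -0.59 to -0.01) did not pass (adjusted p = 0.0936). The summed level of SPRED1 and SPRED2 per length came to 99.7 and 103.8 RPKM in SK-UT-1B and 52.25 to 62.8 RPKM in SK-LMS-1. SPRED1 made up 67.0% to 70.6% of it in SK-UT-1B and 52.9% to 56.5% in SK-LMS-1.

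The ETS factors diverged. ETV4 was at 216 and 178 CPM in the SK-UT-1B DMSO libraries and at 14.1, 20.6, 20.2, and 13.2 CPM in those of SK-LMS-1. ETV4 was lower in SK-LMS-1 by a log2FC of -3.54 (SE 0.216, adjusted p = 1.55e-10, edgeR), or 11.6-fold. ETV5, its close relative, was at 178 and 144 CPM in SK-UT-1B and 199.7, 163, 171, and 185 CPM in SK-LMS-1. The ETV5 groups overlapped, with a log2FC of 0.16 (95% interval -0.18 to 0.50, adjusted p = 0.467). Summed per length, both genes came to 92.25 and 75.5 RPKM in SK-UT-1B and 34.15 to 38.6 RPKM in SK-LMS-1. ETV4 made up 66.6% to 67.0% of this sum in SK-UT-1B and 10.4% to 17.2% in SK-LMS-1. The sum leaves out the other ETS factors listed. ETV1, among these, was at 301 and 337 CPM in SK-UT-1B and at 307 to 347 CPM in SK-LMS-1 after DMSO. PHLDA1 was at 212 and 258 CPM in SK-UT-1B and 1323, 1260, 1528, and 1349 CPM in SK-LMS-1, higher by 2.54 on the log2 scale (SE 0.216, adjusted p = 4.60e-07), or 5.80-fold.

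**Figure D2:**
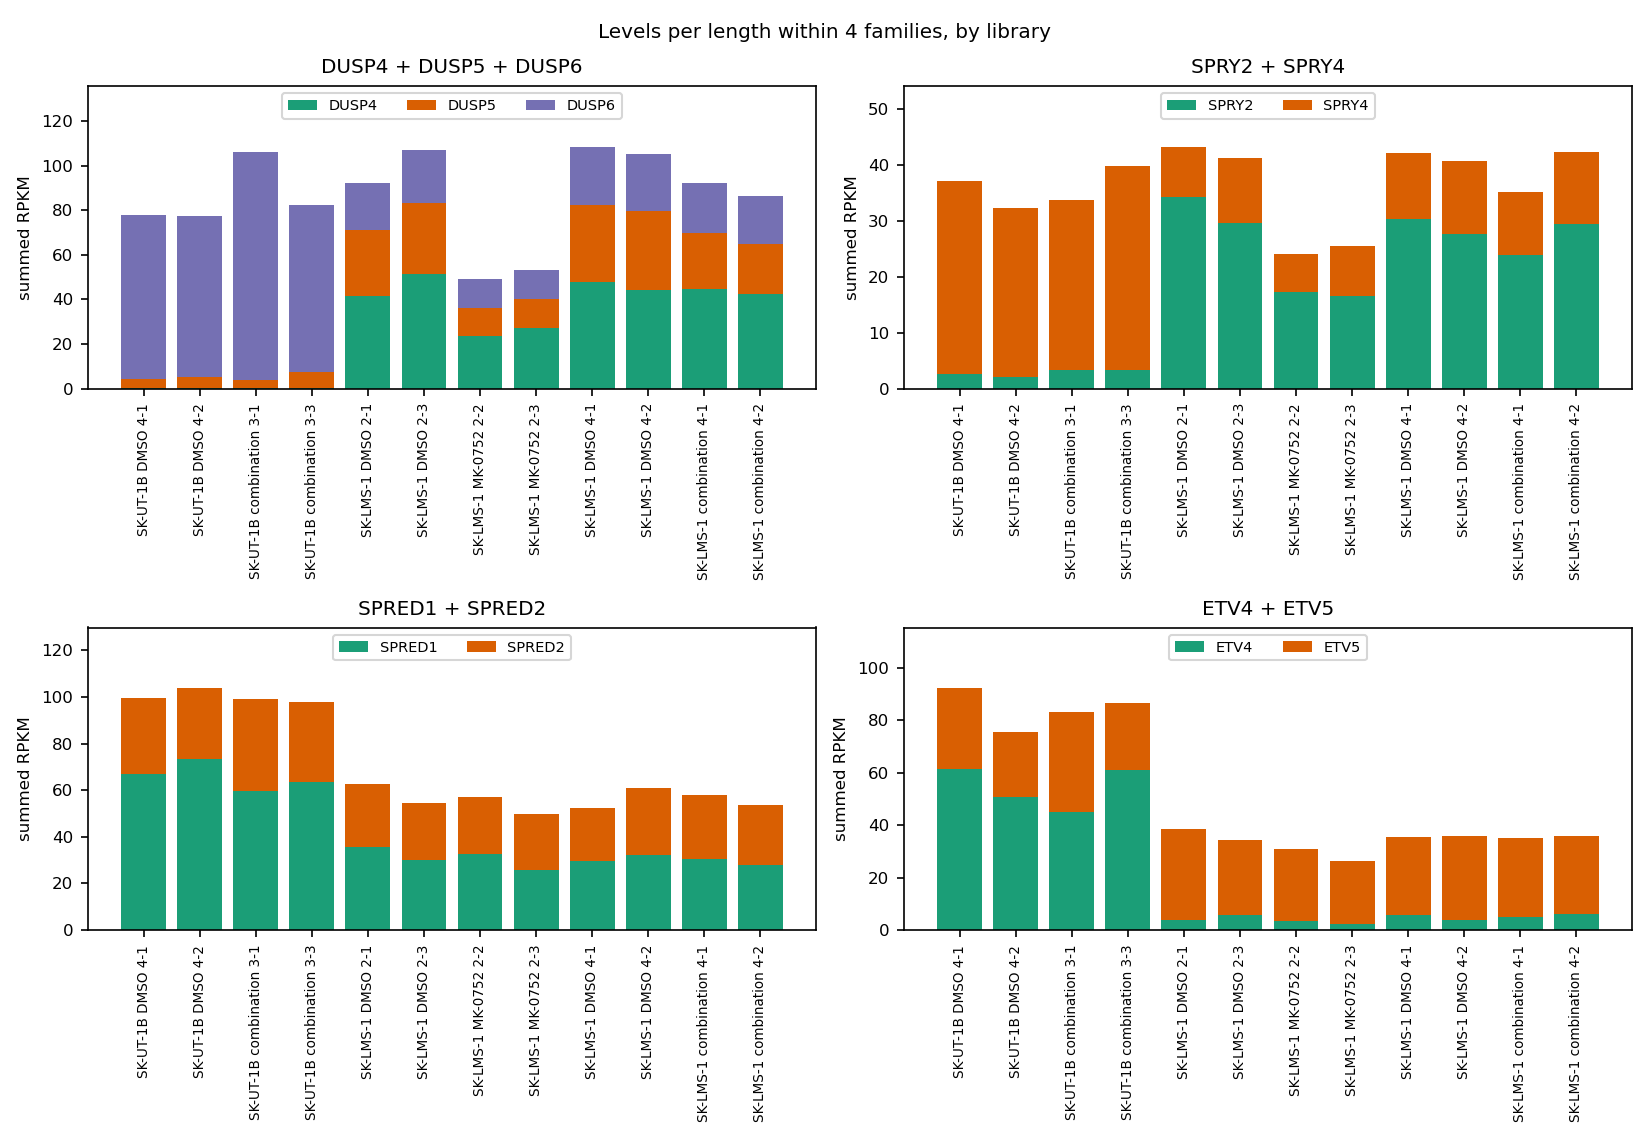
Levels per length (summed RPKM) as stacked bars, 1 bar for each of the 12 libraries. The bars hold DUSP4, DUSP5, and DUSP6, SPRY2 and SPRY4, SPRED1 and SPRED2, and ETV4 and ETV5. Other genes of these families are left out. DUSP6, SPRY4, and ETV4 fill most of their bars in SK-UT-1B, DUSP4, SPRY2, and ETV5 take the largest share in SK-LMS-1, and the phosphatase and Sprouty bars after MK-0752 are the shortest (49.1 and 53.1 RPKM, 24.1 and 25.4 RPKM).

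After the combination, which was dosed by line, the lines differed in the same 8 genes and in the same directions. Again 4 genes were called higher in SK-LMS-1 and 4 lower, where 15.6% of all genes were called higher and 9.88% lower. The log2FC was 8.02 for DUSP4, 2.09 for DUSP5, 3.01 for SPRY2, and 1.90 for PHLDA1 among those higher. It was -2.02 for DUSP6, -1.47 for SPRY4, -1.07 for SPRED1, and -3.28 for ETV4 among those lower, with adjusted p at or below 1.65e-05 for all 8 by edgeR. SPRED2 was at -0.49 (adjusted p = 0.0245), which is under the fold threshold, and ETV5 at -0.08 (95% interval -0.47 to 0.31). The 8 calls held with every library left out and under the other alternatives tried, in both line comparisons.

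**Figure D3:**
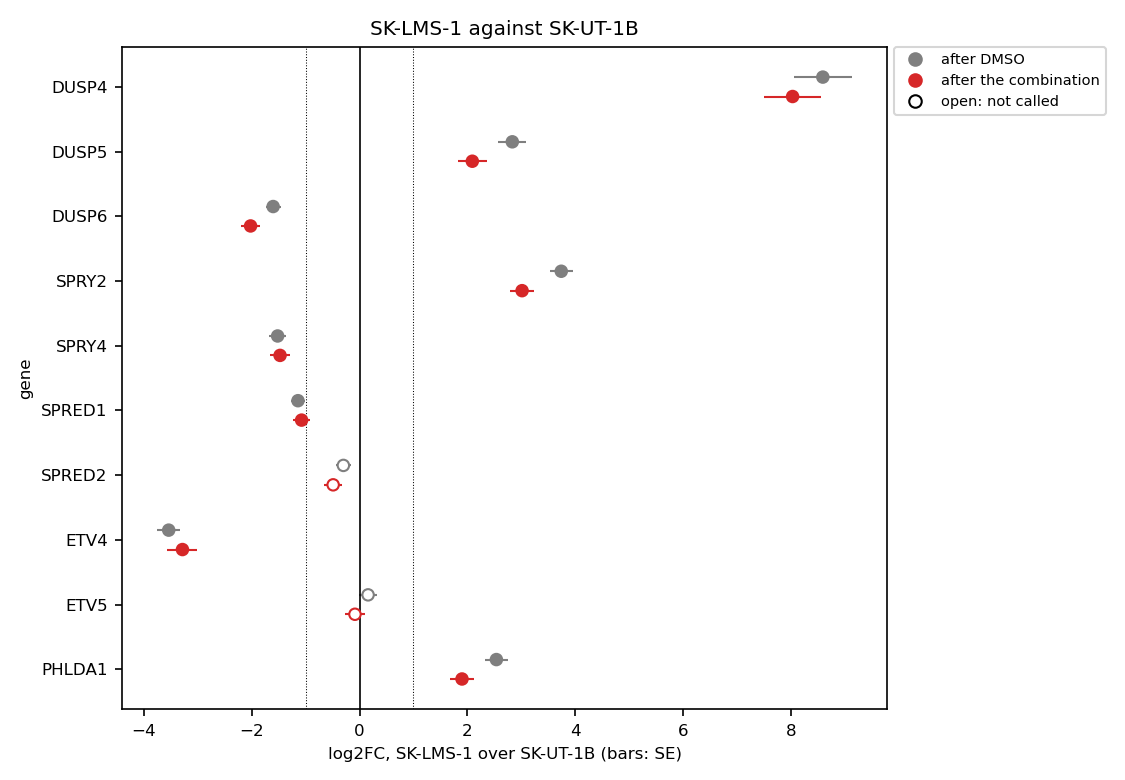
log2FC of each of the 10 genes in SK-LMS-1 over SK-UT-1B after DMSO (grey) and after the combination (red), with bars of 1 SE, filled points for genes called, and dotted lines at the fold threshold. DUSP4 lies at 8.58 and 8.02 and ETV4 at -3.54 and -3.28, while SPRED2 and ETV5 lie within the dotted lines.

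The other genes of the pathway differed between the lines in many places. Of 7 other MAP kinase phosphatases, 3 were called higher in SK-LMS-1 under DMSO and 3 lower. DUSP10, which acts on JNK and p38, was called higher with 5 and 52 counts in SK-UT-1B and 383 to 658 in SK-LMS-1. DUSP8, of the same preference, was called higher with 10 and 3 counts in SK-UT-1B and 74 to 280 in SK-LMS-1, and DUSP2, a nuclear phosphatase, had 128 and 80 counts in SK-UT-1B and at most 8 in SK-LMS-1. Of 8 other Sprouty, SPRED, and receptor-level inhibitors, 4 were called higher and none lower, with LRIG1 at 4.63 and ERRFI1 at 4.24, both inhibitors of EGFR family receptors, and SPRED3 at 6.51 and 2.39 CPM in SK-UT-1B against 23.5 to 26.9 CPM. Of 10 other ETS factors, 4 were higher and 2 lower. ETS1 was higher by 3.01 and ELK3 by 2.55, and FLI1, with 0 counts in SK-UT-1B, was at least 261-fold higher, with the floor set at 3 counts per library. Such bounds cover counting error only, since no molecular identifiers are stated and reads are then not separate molecules.

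Of 15 other ERK-responsive genes, 10 were called higher in SK-LMS-1 under DMSO and 0 lower, with a median log2FC of 1.92 beside 0 for all genes. IER3, a stress-inducible survival gene, was at 5.18, PHLDA2, a relative of PHLDA1, at 4.76, and EPHA4, a receptor tyrosine kinase, was called higher with 44 and 0 counts in SK-UT-1B and 307 to 1013 in SK-LMS-1. Folds are left out for genes with so few or so unequal counts in SK-UT-1B, since they would turn on 1 library. The 10 feedback genes, with 4 calls in each direction, did not share that single direction, and the difference between the lists was not tested. In the core cascade, 3 of 20 genes were higher and 3 lower. NF1, which encodes neurofibromin, was lower in SK-LMS-1 by a log2FC of -2.81 (341 and 309 CPM in SK-UT-1B against 35.5 to 57.7 CPM), RASA1, also a RAS inactivator, was higher by 1.85, and PEA15, which holds ERK in the cytoplasm, by 1.72. Of the 23 growth factors and receptors tested, of 24 listed, 13 were higher and 6 lower. FGF5 exceeded SK-UT-1B at least 1040-fold and FGF1 at least 128-fold in SK-LMS-1, both with 0 counts in SK-UT-1B, and the receptor FGFR4 was at least 350-fold lower, with 0 counts in the SK-LMS-1 DMSO libraries.

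After the combination, 3 of the 7 other phosphatases were called higher in SK-LMS-1 and 2 lower, with DUSP10 at 24 and 20 counts in SK-UT-1B against 346 and 367 in SK-LMS-1, DUSP8 at 47 and 86 against 310 and 246, and DUSP2 at 152 and 68 against 0. All 4 genes of the inhibitor list called after DMSO were called again, with LRIG1 at 3.70, SPRED3 at 2.46, and ERRFI1 at 34.0 and 15.5 CPM in SK-UT-1B against 226 and 222 CPM. Of the 10 other ETS factors 4 were higher and 2 lower, with ETS1 at 2.88, ELK3 at 2.30, and FLI1 again at 0 counts in SK-UT-1B. Of the 15 other ERK-responsive genes 8 were higher and 0 lower, with PHLDA2 at 5.18, IER3 at 56 and 157 counts in SK-UT-1B against 4080 and 3644, and EPHA4 at 27 and 19 against 716 and 524. The core cascade had 4 higher and 1 lower of 20, with PEA15 at 1.86, the adaptor SHC1 at 1.40, and NF1 at -2.27. Among the growth factors and receptors 10 were higher and 6 lower, with FGF5 and FGF1 at 0 counts in SK-UT-1B, and FGFR2, an FGF receptor, at 271 and 297 counts in SK-UT-1B and 0 in SK-LMS-1.

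The next comparison asked how MK-0752 alone alters the feedback genes in SK-LMS-1. DUSP5 was called lower, the only one of the 10 genes past both thresholds, where 0.194% of all genes were called lower and 0.0568% higher. DUSP5 and DUSP6 had an adjusted p under 0.05 and a lower level at any fold, as did 0.279% of all genes. Before these thresholds, 9 of the 10 genes had a log2FC below 0, as did 45.8% of all genes, and the median was -0.60, beside 0 for all genes. Both MK-0752 libraries lay below both libraries of DMSO set 2 for 7 of the 10 genes (DUSP4, DUSP5, DUSP6, SPRY2, SPRY4, ETV4, ETV5), as for 17.5% of all genes. They also lay below all 4 DMSO libraries for the same 7 genes, as for 7.70% of all genes.

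DUSP5 was at 75.3 and 80.3 CPM in DMSO set 2 and at 32.3 and 33.5 CPM after MK-0752. The drug libraries agreed closely and lay at less than any of the other 6 SK-LMS-1 libraries, of which the lowest was at 56.1 CPM. DUSP5 fell by 1.24 on the log2 scale (SE 0.260, adjusted p = 0.0395, edgeR), or 2.37-fold. The call was lost when any of the 4 libraries was left out, with an adjusted p of 0.187 to 0.363 and a log2FC of -1.29 to -1.20, and with the stricter filter on low counts (adjusted p = 0.0759). It held in the other 5 alternatives, among them all 4 DMSO libraries as the control (log2FC -1.34, adjusted p = 0.00711) and DESeq2 (adjusted p = 0.00224), with adjusted p from 0.000234 to 0.0759 over all 6.

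DUSP6 was at 81.9 and 90.9 CPM in DMSO set 2 and at 50.03 and 49.1 CPM after MK-0752, again lowest of all SK-LMS-1 libraries. Its log2FC was -0.80 (SE 0.166, adjusted p = 0.0383, edgeR), under the fold threshold, and the adjusted p was 0.209 to 0.367 with a library left out and 0.000203 to 0.0632 in the other alternatives. DUSP4 was at 301 and 375 CPM in DMSO set 2 and at 170.2 and 198 CPM after MK-0752. The groups did not overlap, and the fit of all 12 libraries gave a log2FC of -0.88 with an SE of 0.376 (adjusted p = 0.777). The adjusted p of DUSP4 was 0.0093 with the 4 libraries of the comparison alone and up to 0.77 in the other alternatives that leave out no library, with the log2FC under the fold threshold in each. With a library left out the log2FC of DUSP4 was -1.03 to -0.71 and its adjusted p at least 0.832. Summed per length, DUSP4, DUSP5, and DUSP6 came to 49.1 and 53.1 RPKM after MK-0752, against 92.3 and 107 RPKM in DMSO set 2. Of this sum DUSP6 made up 24.0% to 26.4% after MK-0752 and 22.0% to 23.0% in DMSO set 2. The share of DUSP5 was 24.9% to 25.9% against 29.7% to 32.2%, and that of DUSP4 47.7% to 51.2% against 44.8% to 48.3%.

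SPRY2 was at 110.3 and 95.2 CPM in DMSO set 2 and at 55.2 and 53.3 CPM after MK-0752. Its log2FC of -0.92 (SE 0.202, adjusted p = 0.0562, edgeR) missed both thresholds, and with all 4 DMSO libraries as the control it was -0.85 with an adjusted p of 0.0294, in a range of 0.00118 to 0.0728 over the alternatives that leave out no library. SPRY4 was at 58.9 and 76.3 CPM in DMSO set 2 and at 45.3 and 57.9 CPM after the drug, values that lay close together at the border between the groups (log2FC -0.39, SE 0.186, adjusted p = 0.779). The Sprouty sum was 24.1 and 25.4 RPKM after MK-0752, against 41.3 and 43.3 RPKM in DMSO set 2.

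ETV4 was at 14.1 and 20.6 CPM in DMSO set 2 and at 11.6 and 7.66 CPM after MK-0752, a log2FC of -0.85 (SE 0.264, adjusted p = 0.34, edgeR) in a gene of low level in this line. ETV5 was at 199.7 and 163 CPM in DMSO set 2 and at 159 and 139 CPM after the drug, with a log2FC of -0.28 (adjusted p = 0.806). SPRED1 and SPRED2 overlapped between the groups, and both drug libraries of PHLDA1 lay above both DMSO libraries. SPRED1 was at 275 and 232 CPM in DMSO set 2 and 252 and 201 CPM after the drug, SPRED2 at 150.5 and 135 against 135 and 131 CPM, and PHLDA1 at 1323 and 1260 against 1487 and 1455 CPM. The 95% intervals of their log2FC were -0.48 to 0.16, -0.44 to 0.24, and -0.28 to 0.66.

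**Figure D4:**
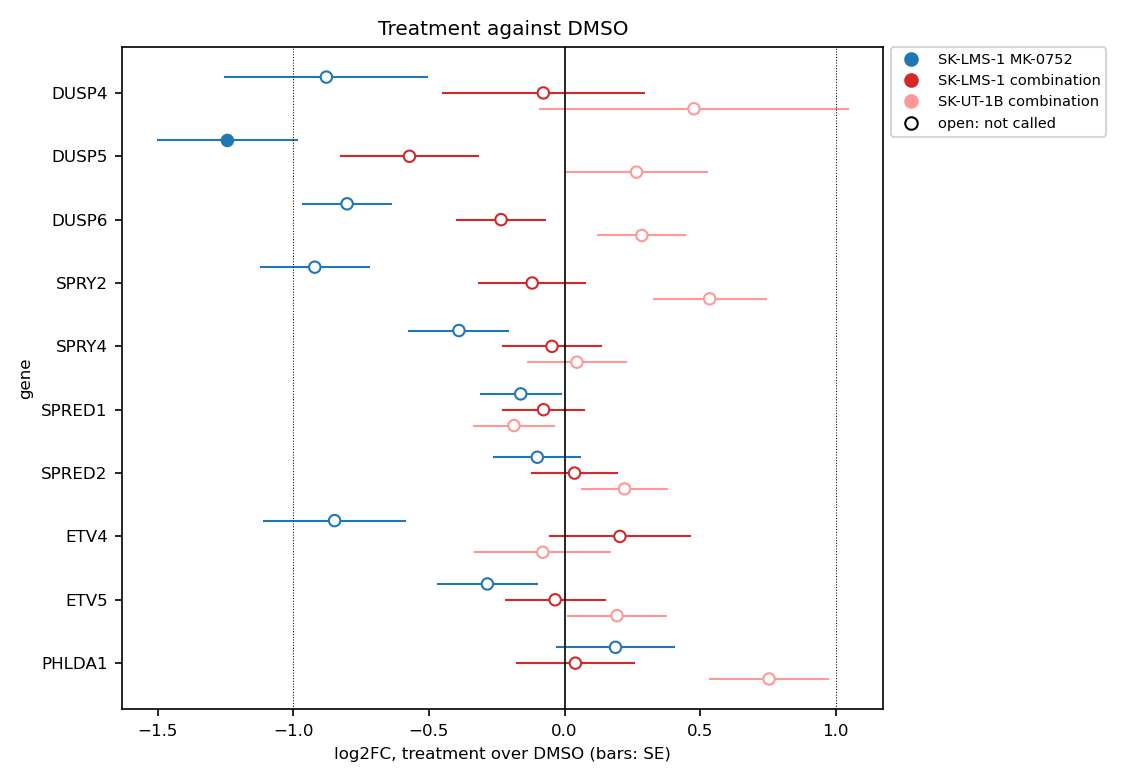
log2FC of each of the 10 genes after treatment over DMSO with bars of 1 SE, for MK-0752 in SK-LMS-1 (blue), the combination in SK-LMS-1 (red), and the combination in SK-UT-1B (light red), with filled points for genes called and dotted lines at the fold threshold. Only DUSP5 after MK-0752 is called (-1.24), and PHLDA1 after the combination in SK-UT-1B is highest (0.75).

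Among the other genes of the pathway, calls after MK-0752 were few. Of the 8 other Sprouty, SPRED, and receptor-level inhibitors, ERRFI1, the feedback inhibitor of EGFR, was called lower, from 282 and 226 CPM in DMSO set 2 to 106 and 94.7 CPM (log2FC -1.34, SE 0.263, adjusted p = 0.0491, edgeR), and 7 were not called. Of the 23 growth factors and receptors tested, FGF5, a secreted ligand of FGF receptors, was called lower, from 171 and 157 CPM to 80.7 and 73.3 CPM (log2FC -1.09, SE 0.190, adjusted p = 0.0148). FGF5 was at 116 and 108 CPM in DMSO set 4, and against the 4 DMSO libraries together it was not called. The calls of both genes were also lost when any of the 4 libraries was left out, and that of ERRFI1 with the stricter filter on low counts. None of the 7 other phosphatases, 10 other ETS factors, 15 other ERK-responsive genes, or 20 core cascade genes was called. Their median log2FC were -0.38, -0.05, -0.38, and -0.01. Among the growth factors and receptors, FGFR2, FGFR3, and FGFR4 had 0 counts in DMSO set 2 and after MK-0752. These 3 receptors could not be called in this comparison.

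After the combination in SK-LMS-1, 0 of the 10 feedback genes were called, where 0.0237% of all genes were called in either direction, and DESeq2 also called 0 of them. DUSP5 alone of the 10 had an unadjusted p under 0.05, as did 914 of all 21114 genes. It was at 87.6 and 90.1 CPM in DMSO set 4 and at 63.4 and 56.1 CPM after the combination, without overlap, a log2FC of -0.57 (SE 0.256, adjusted p = 0.907, edgeR). For DUSP6 the values were 101 and 98.0 CPM in DMSO set 4 and 86.0 and 83.0 CPM after the combination (log2FC -0.23, adjusted p = 0.907). SPRY2 was at 97.3 and 88.9 CPM in DMSO set 4 and at 76.8 and 94.6 CPM after the combination, and the groups overlapped. The log2FC of the other 7 genes apart from DUSP5, DUSP6, and SPRY2 lay between -0.08 and 0.20, and the median of the 10 was -0.06, beside 0.03 for all genes. Of the other lists of the pathway, no gene was called. DUSP2, FGFR2, and FGFR3 had 0 counts in DMSO set 4 and after the combination, and could not be called in this comparison.

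MK-0752 and the combination were then set side by side in SK-LMS-1, each against its own DMSO set, by the difference of their effects. The doses of MK-0752 differed, so this compares the treatments as given. None of the 10 genes passed the test by edgeR, where 0.0379% of all genes did, and DESeq2 also gave 0. An unadjusted p under 0.05 was reached by 3 of the 10 genes and by 1094 of all 21114. The difference (MK-0752 minus combination) was -0.80 for SPRY2 (SE 0.284), -1.05 for ETV4 (SE 0.371), and -0.57 for DUSP6 (SE 0.233), all with an adjusted p of 0.911 by edgeR. It was -0.67 for DUSP5 (95% interval -1.43 to 0.09) and -0.80 for DUSP4 (95% interval -2.01 to 0.41). Between DMSO set 4 and DMSO set 2, 0 genes were called among the 10 and 0% among all genes by edgeR, with 0 of the 10 and 1197 of all genes at an unadjusted p under 0.05, and DESeq2 called 0 of the 10 and 74 of all genes.

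In SK-UT-1B, the combination left the 10 feedback genes without a call in either direction, where 0.559% of all genes were called, and DESeq2 also called 0 of them. PHLDA1 and SPRY2 had an unadjusted p under 0.05, as did 2214 of all 21114 genes. PHLDA1 was at 212 and 258 CPM after DMSO and at 518 and 275 CPM after the combination. Both treated libraries lay above both controls, but 1 of them only just, and the log2FC of 0.75 (SE 0.220) had an adjusted p of 0.179 by edgeR. Without combination library 3-3 the log2FC of PHLDA1 was 1.14 and passed the test (adjusted p = 8.51e-06), and without library 3-1 it was 0.20. In the alternatives that leave out no library the log2FC of PHLDA1 was 0.74 to 0.76 with an adjusted p of 8.96e-05 to 0.618, under the fold threshold in each. SPRY2 was at 8.10 and 6.58 CPM after DMSO and at 10.4 and 10.9 CPM after the combination, without overlap (log2FC 0.54, SE 0.210, adjusted p = 0.323).

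DUSP6 was at 284 and 278 CPM after DMSO and at 395 and 289 CPM after the combination in SK-UT-1B, so that library 3-1 was high and library 3-3 near the controls (log2FC 0.29, adjusted p = 0.609). ETV5 had the same pattern, at 178 and 144 CPM after DMSO and 219 and 148 CPM after the combination (log2FC 0.19, adjusted p = 0.859). DUSP5 had the opposite one, at 10.3 and 13.1 CPM after DMSO, 9.67 CPM in library 3-1, and 18.5 CPM in library 3-3 (log2FC 0.27). The 2 combination libraries also differed most of all replicate pairs, with a chi-square of 113 per gene against 16.7 to 58.9 for the other 5 pairs, and the part of this spread in the values above was not tested. SPRED2 was at 181 and 168 CPM after DMSO and 218 and 189 CPM after the combination (log2FC 0.22), SPRED1 at 517 and 568 against 462 and 491 CPM (log2FC -0.19), SPRY4 at 227 and 199 against 200.1 and 239 CPM (log2FC 0.05), and ETV4 at 216 and 178 against 159 and 214 CPM (log2FC -0.08). DUSP4 remained at 37 and 41 counts (log2FC 0.48, 95% interval -0.83 to 1.79), and without DMSO library 4-1, which leaves 11 counts as the only control, it was 2.01 and passed the test (adjusted p = 0.0135).

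Of the 15 other ERK-responsive genes, EGR1, an immediate early zinc finger factor, rose in SK-UT-1B after the combination, from 23.5 and 23.2 CPM to 199 and 86.2 CPM (log2FC 2.61, SE 0.305, adjusted p = 0.0016, edgeR), and 14 were not called. EGR1 was likewise higher in library 3-1 than in library 3-3, and it was not called in a fit of the 4 libraries alone. No gene was called among the 7 other phosphatases, the 8 other Sprouty, SPRED, and receptor-level inhibitors, the 10 other ETS factors, the 20 core cascade genes, or the 23 growth factors and receptors tested, with median log2FC of 0.00, 0.42, 0.11, -0.06, and 0.00.

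Finally, the effect of the combination, at the doses set for each line, was compared between the lines by its difference (SK-UT-1B minus SK-LMS-1). None of the 10 genes passed the test by edgeR, where 0.232% of all genes did, and DESeq2 also gave 0. The difference had an unadjusted p under 0.05 in 4 of the 10 genes, each with a higher value in SK-UT-1B, and in 1619 of all 21114. It was 0.84 for DUSP5 (SE 0.367, adjusted p = 0.629), 0.65 for SPRY2 (SE 0.290, adjusted p = 0.631), 0.52 for DUSP6 (SE 0.232, adjusted p = 0.634), and 0.71 for PHLDA1 (SE 0.309, adjusted p = 0.639). For PHLDA1 it was 1.10 and passed the test without combination library 3-3 (adjusted p = 0.000644), and for DUSP4, at 0.56 with all libraries, it was 2.12 and passed without SK-UT-1B DMSO library 4-1 (adjusted p = 0.0228).

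Several of the 10 genes overlap other annotated genes (GENCODE v44, hg38), and the strand setting of the counts is not given in the sources used here, so reads of the partners may be mixed. ETV4 (chr17:43527844-43579620, minus strand) overlaps the coding gene DHX8 on the other strand, and ETV5 (chr3:186046314-186110318, minus strand) overlaps DGKG on the same strand and ETV5-AS1 on the other. SPRY4 overlaps SPRY4-AS1, PHLDA1 overlaps PHLDA1-AS1, DUSP6 overlaps a noncoding gene on the other strand, and SPRED2 overlaps a noncoding gene on its own strand. DUSP4, DUSP5, SPRY2, and SPRED1 overlap no other annotated gene.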

How the data were processed

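Count values were those the authors deposited, as whole-number counts of reads per gene without normalization. According to the study's methods, stranded libraries depleted of ribosomal RNA were read from 1 end, trimmed with Trim Galore 0.3.7, aligned to hg38 with STAR 2.7.9a, cleared of ribosomal RNA with SortMeRNA, and counted with STAR. The annotation, the strand setting, and any removal of duplicates are not given in the sources used here. No other measured column was used.

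All 12 libraries were mapped by title to 6 groups of 2, with the 4 SK-LMS-1 DMSO libraries split by first number. A single edgeR 4.0.16 fit in R 4.3.3 (TMM, filterByExpr, robust quasi-likelihood) covered all groups and 21114 genes. Called means a log2FC of 1 or more in size together with an adjusted p under 0.05 (Benjamini-Hochberg over all genes tested), as in the study. The study used DESeq2, which was an alternative here (version 1.42.0). SE was derived from the F statistic, and CPM used TMM library sizes. RPKM divided CPM by the union of exon bases in GENCODE v44. Depth limits precision mainly for DUSP4 in SK-UT-1B. The test was checked on simulated counts, in which only genes of higher level were changed. That check does not cover genes of low level, where zeros were frequent. Alternatives were DESeq2, its size factors within edgeR, no filter on low counts, a mean of at least 50 counts, a fit of the compared libraries only, the 4 SK-LMS-1 DMSO libraries as a joint control, a replicate block, and each library left out. A library left out leaves a group with 1 sample, which is then assumed to vary like the other groups, and these fits kept the genes tested in the fit of all libraries. The members, the gene lists, and the rule for named genes (every member, of each other list all genes called after treatment, at most 6, and the 3 called genes with the largest absolute log2FC between the lines) were chosen with earlier results of these data known. Marker and Notch lists served as checks only.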

Additional observations from a re-analysis of the deposited data

How the results depend on the processing

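The 4 higher and 4 lower members between the lines were the same under every alternative tried, after DMSO and after the combination. After MK-0752, the count of members called lower, 1 in the fit of all libraries, was 0 with a mean of at least 50 counts and 0 with each library left out. With a library left out, the count of members called higher was 0 to 1 after the combination in SK-UT-1B and 0 to 1 for the difference of the combination effects. Signs turned only for log2FC that were not called. For the combination in SK-LMS-1, SPRED2 was -0.0085 and PHLDA1 -0.0082 with a mean of at least 50 counts, and SPRY4 was 0.091 against all 4 DMSO libraries. With a library left out in that comparison, SPRY2 ranged from -0.28 to 0.024, SPRY4 from -0.14 to 0.0405, SPRED2 from -0.12 to 0.21, ETV4 from -0.073 to 0.54, ETV5 from -0.091 to 0.025, and PHLDA1 from -0.047 to 0.13. For the combination in SK-UT-1B, DUSP4 ranged from -0.35 to 2.01, DUSP5 from -0.27 to 0.63, SPRY4 from -0.089 to 0.14, ETV4 from -0.31 to 0.092, and ETV5 from -0.14 to 0.45. The difference of the combination effects ranged from -0.28 to 2.12 for DUSP4, and ETV5 between the lines after the combination from -0.34 to 0.20. The cause of these shifts was not tested.

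Among the treatment comparisons, the combination in SK-LMS-1 was the one in which treated and control groups shared 2 replicate numbers. There the difference of library 1 minus library 2 in DMSO set 4 correlated with that in the combination at -0.02 over 13522 genes, so the numbers were not taken as pairs. With a replicate block, 0 members were called higher and 0 lower. DMSO set 4 also shares its numbers with the SK-UT-1B DMSO libraries, and no block was fitted between the lines. The direct comparison of MK-0752 with the combination libraries was chosen after seeing the data, and it called 0 members. Over all genes, and apart from the comparisons between lines, where the counts stayed within 1.5 times of each other, edgeR called fewer than DESeq2 or a fit without the filter on low counts, with 118 against 463 and 420 genes after the combination in SK-UT-1B, 53 against 181 and 175 after MK-0752 (35 with a mean of at least 50 counts), and 5 against 59 and 73 after the combination in SK-LMS-1 (1 with that filter). The counts were 49 against 196 and 303 (24) for the difference of the combination effects, 8 against 67 and 89 (3) for MK-0752 minus the combination, and 0 against 74 and 76 between the DMSO sets. DUSP4 in SK-UT-1B had low counts, at 11 to 45, and whether depth accounts for their spread was not tested.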
